A study of Mus musculus with 2 samples.

Results

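Among lymphatic endothelial cells (LECs) of the mouse ileum, 255 cells held at least 3 unique molecular identifiers (UMIs, counts of captured mRNA molecules) of the interferon-induced genes Gbp2 and Gbp4 together. These Gbp-high LECs were 255 of 790 LECs and of 6445 cells that passed the filter, with 16 in library 1 and 239 in library 2. They were set against the 237 Gbp-zero LECs that held no UMI of either gene, 23 and 214 cells. The 298 LECs with 1 or 2 such UMIs, 27 and 271 cells, lay between. A cell counted as a LEC where it held at least 5 UMIs of Mmrn1, Lyve1, Reln and Prox1 together and over 4 times as many of these as of the blood endothelial genes Flt1, Cd34, Plvap and Esam. Blood endothelial cells (BECs), the compared cell type, were chosen by the mirror image of that rule and numbered 5391. Gbp2 and Gbp4 thus chose the cells, and their levels, like those of the 8 endothelial rule genes, are a description with no test.

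The ileum, where the small intestine ends, was taken from 8-week-old C57Bl/6 males with no engineered allele (wild type), and its endothelial cells were sorted. The gate took cells with CD31 and without EpCAM or CD45, with PDPN for LECs and without it for BECs. Both droplet libraries of 3' mRNA ends carry the same labels, so no treatment or genotype was compared, and the contrast is between classes of cells within each library. The labels leave it unstated whether different mice gave the 2 libraries, so the libraries may be technical repeats. The p-values thus need not cover the spread between mice.

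Library 1 held 1026 barcodes and 3806199 UMIs, and library 2 held 6302 barcodes and 26645476 UMIs. They shared 2 barcodes, none of them a LEC. Gbp-high LECs had medians of 4567.5 and 3072 UMIs in libraries 1 and 2, against 2427 and 2599 in Gbp-zero LECs. Mitochondrial UMIs had medians of 2.76 and 4.41% in Gbp-high LECs, against 4.36 and 4.77% in Gbp-zero LECs. The nuclear RNA Malat1 stood at 11348 and 7532 CPM (UMIs of a gene scaled to a fixed total for each class) in Gbp-high LECs and 13273 and 14954 CPM in Gbp-zero LECs, a fitted log2 difference of -0.61 ± 0.18 (SE; adjusted p = 0.0313, edgeR) that passed at matched depth and not without 3 leukocyte-bearing Gbp-zero cells. The part of these differences in depth and RNA quality in the gene results was not tested, beyond the fits at matched depth given with them.

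The rule fixed the presence of its lymphatic genes in both classes, and Pdpn, outside the rule, was present in both too. Prox1, the transcription factor that sets lymphatic identity, stood at 638 and 576 CPM in Gbp-high LECs and at 779.9 and 589.5 CPM in Gbp-zero LECs. Lyve1, a hyaluronan receptor of lymphatic capillaries, stood at 3608 and 3188 CPM in Gbp-high LECs and at 4011 and 2847 CPM in Gbp-zero LECs. Pdpn, the gene of the sorting marker and not used by the rule, stood at 191 and 359 CPM in Gbp-high LECs and 223 and 346 CPM in Gbp-zero LECs, and at no more than 1.68 CPM in any BEC class.

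Markers of other cells were low in the Gbp-high LECs. Of 16 T, NK and innate lymphoid markers, 15 had no UMI there, among them Ptprc, Cd3e and the interferon gene Ifng, and the list summed to 0 and 6 UMIs against 1 and 4 in Gbp-zero LECs. The 16 macrophage and dendritic markers summed to 25.5 and 39.1 CPM in Gbp-high LECs, with 9 of them at 0, against 493 and 86.8 CPM in Gbp-zero LECs. The 12 B and plasma cell markers summed to 38.2 and 112 CPM in Gbp-high LECs and to 15.9 and 8654 CPM in Gbp-zero LECs. These high sums in the Gbp-zero class lay in 3 cells with at least 10 leukocyte UMIs each, 1 in library 1 and 2 in library 2, where 1 cell alone held 5629. No Gbp-high LEC held that many, and where a call named in the text ended without these 3 cells, this is said. Without them, Gbp-zero LECs held 34.9 and 42.2 CPM of the macrophage and dendritic list and 0 and 84.4 CPM of the B and plasma cell list. The 14 epithelial, 8 fibroblast, 8 mural, 5 red cell and 7 enteric glia or neuron markers summed to at most 42.8 CPM in Gbp-high LECs and 68.5 CPM in Gbp-zero LECs. Scrublet called no LEC a doublet, but it also passed the cell with 5629 leukocyte UMIs and called none of the 4623 BECs of library 2. Its calls thus give no support for the purity of the LECs.

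Interferons bind receptors that signal through JAK kinases to STAT transcription factors. Type I interferons act mainly through a complex of STAT proteins with IRF9, which binds the interferon-stimulated response element (ISRE), and interferon gamma acts through STAT dimers, which bind the gamma-activated site (GAS). The guanylate-binding proteins (GBPs) and the immunity-related GTPases (IRGs) are interferon-induced GTPases that attack the vacuoles of intracellular pathogens. Lymphatic capillaries of the intestine carry fluid, dietary fat, antigen and leukocytes towards the lymph nodes, and LECs can present antigen and restrain T cells.

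The start regions of the genes that were higher in Gbp-high LECs held the ISRE core more often than those of the other genes tested. The ISRE core was searched as GAAA, any 2 bases and GAAA again, and the GAS core as TTCNNNGAA, on both strands, in the windows around gene starts that RefSeq (GRCm38.p6) gives, 250 bases before to 50 after. Windows matched 58 of the 82 higher genes by symbol, and 23 of these held an ISRE core (39.7%). The share was 4.26% of all genes tested, 8.70% for the 23 matched genes that were lower (2 genes), 3.80% for those that did not pass the test, and 3.44% of all 32851 windows. A GAS core was in 10 of the 58 higher genes (17.2%), in 5 of the 23 lower genes (21.7%) and in 8.30% of all windows. These shares are descriptions of letters and show no binding. The stretches of 90 bases that follow were picked among genes that held an ISRE core, so they do not show how common it is. Other genes named below had a window with neither core, among them Irf7, Cd274, Cmpk2, Ifi44, Ifi47 and Tap1. They are on each gene's own strand, 5′ to 3′, with ISRE and GAS cores in capitals. An ISRE core on the other strand reads TTTC, any 2 bases and TTTC, and overlapping cores run together.
Gbp2, chr3:142620549-142620638 (+): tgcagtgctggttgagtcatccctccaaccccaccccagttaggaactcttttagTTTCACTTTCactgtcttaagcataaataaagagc
Gbp2b, chr3:142594655-142594744 (+): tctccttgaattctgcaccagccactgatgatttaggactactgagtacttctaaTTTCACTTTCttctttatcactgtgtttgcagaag
Gbp3, chr3:142559950-142560039 (+): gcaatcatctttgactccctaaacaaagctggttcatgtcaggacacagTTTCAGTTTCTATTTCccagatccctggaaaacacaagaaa
Gbp7, chr3:142530228-142530317 (+): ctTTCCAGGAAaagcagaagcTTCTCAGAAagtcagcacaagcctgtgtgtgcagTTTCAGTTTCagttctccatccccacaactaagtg
Igtp, chr11:58199466-58199555 (+): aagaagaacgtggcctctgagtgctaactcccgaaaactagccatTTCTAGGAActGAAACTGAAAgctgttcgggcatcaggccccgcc
Irgm2, chr11:58214858-58214947 (+): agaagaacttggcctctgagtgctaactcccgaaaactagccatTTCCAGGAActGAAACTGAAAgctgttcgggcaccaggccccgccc
Rsad2, chr12:26456538-26456627 (-): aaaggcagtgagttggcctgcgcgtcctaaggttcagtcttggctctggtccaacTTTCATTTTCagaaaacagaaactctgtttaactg
B2m, chr2:122147493-122147582 (+): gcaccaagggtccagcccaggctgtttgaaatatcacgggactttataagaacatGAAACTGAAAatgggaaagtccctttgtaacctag
The ISRE core nearest the start began 59 bases before it in Gbp2, 137 in Gbp2b, 39 in Gbp3, which held 2 overlapping cores, and 53 in Gbp7. Igtp and Irgm2, neighbours on chromosome 11, held a GAS core just before an ISRE core in near-identical surroundings.

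Gbp-high cells were a larger share of LECs than of BECs in library 2. They made up 24.2% of LECs in library 1 (95% Clopper-Pearson interval 14.5 to 36.4%) and 33.0% in library 2 (29.6 to 36.6%), against 20.4% (17.6 to 23.5%) and 18.1% (17.0 to 19.3%) of BECs. After each cell was thinned to 1500 UMIs, the shares were 10.6 and 15.7% of LECs, against 5.99 and 4.09% of BECs. Such intervals cover counting error only, and the shares depend on the UMI threshold and on depth. The sort held no cell type that should lack Gbp2 and Gbp4, so what free RNA adds to cells with few such UMIs was not measured.

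Most Gbp-high LECs carried both genes. A rule on the sum of 2 genes of similar abundance favours such cells, so their share is no test of co-expression. Both were found in 12 of the 16 cells of library 1 and 180 of the 239 of library 2, Gbp2 alone in 3 and 45, and Gbp4 alone in 1 and 14. Gbp2 stood at 574 and 970.3 CPM in the Gbp-high LECs and Gbp4 at 650.2 and 684 CPM, both by choice at 0 in the Gbp-zero LECs. The ratio of Gbp2 to Gbp4 UMIs was 0.882 and 1.42 in Gbp-high LECs, against 0.281 and 0.451 in Gbp-high BECs, so Gbp4 prevailed in BECs and less so, or not, in LECs. The median Gbp-high LEC held 4 UMIs of the pair in each library, and the highest held 20 and 25. Just inside the threshold, 7 and 70 cells held exactly 3 UMIs, and just outside it 12 and 120 held exactly 2. When each cell's UMIs were split at random into equal parts and cells were chosen on the first (at least 2 against 0), the second part gave 625 and 820 CPM of Gbp2 in the high cells, against 175 and 261 CPM in the zero cells. Gbp4 in that part stood at 562 and 598 CPM in the high cells, against 117 and 101 CPM in the zero cells.

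Outside the rule genes, Gbp-high LECs held more RNA of other GBPs, of IRGs, of interferon-stimulated genes and of the MHC class I pathway, and less of Nts and Tgfbi. Of 5942 genes tested, 114 passed a false discovery rate of 0.05 (1.92%) in edgeR's quasi-likelihood test on summed UMIs with the library as a block. Of these, 82 were higher (1.38%) and 32 lower (0.539%) in Gbp-high LECs. The sign agreed between the libraries for 92.1% of the called genes and 54.2% of all genes. Calls rested on both libraries, so this agreement is favoured by the choice and is no independent repeat. The median log2 fold change over all genes was 0.00. With Gbp-high cells paired to Gbp-zero cells within 10% of their UMIs (7 and 203 pairs), 43 genes were higher and 16 lower. All 80 higher and 31 lower genes of the first fit that could be tested there kept their sign. The pairs reuse cells of the first fit, so kept signs are no independent support. Depth stayed unequal in library 2, with paired medians of 2926 UMIs in Gbp-high and 2686 in Gbp-zero LECs. The 3 leukocyte-bearing cells stayed among the pairs. Without the 3 leukocyte-bearing cells, 57 genes were higher and 22 lower. The spread behind these tests was estimated almost wholly across genes, since 2 libraries leave 1 residual degree of freedom.

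**Figure D1:**
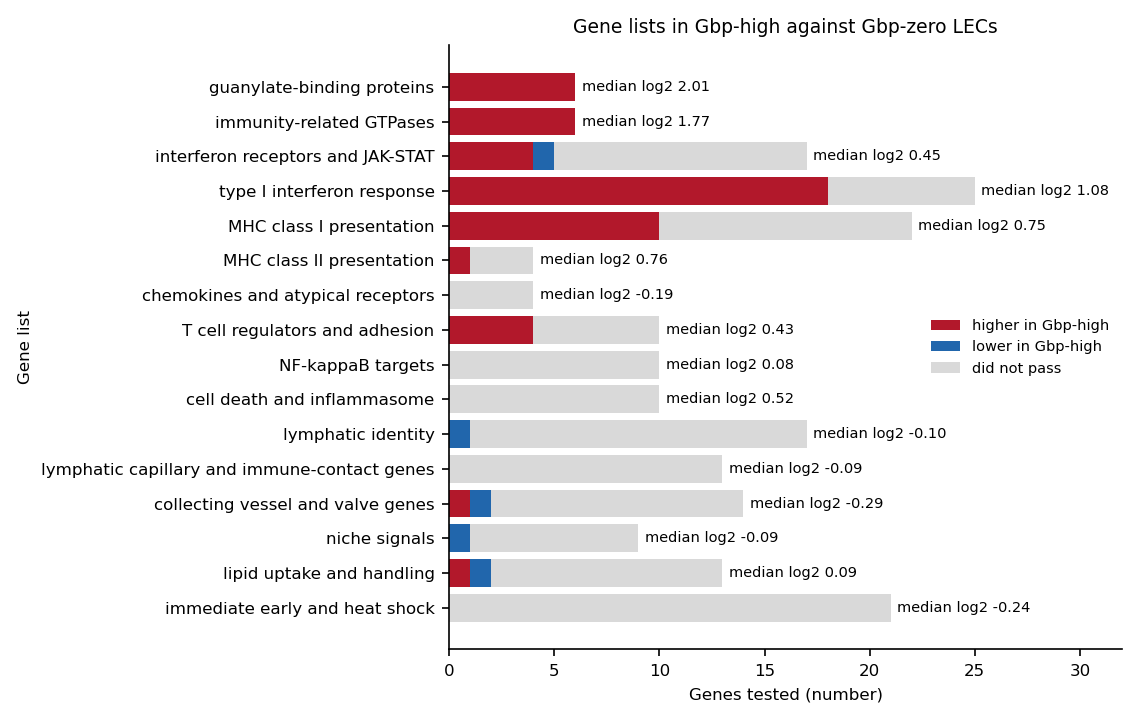
Number of genes in each list that were higher (red), lower (blue) or did not pass (grey) in Gbp-high against Gbp-zero LECs (edgeR, false discovery rate 0.05), with the median log2 fold change of the genes tested. All 6 GBPs and all 6 IRGs tested were higher, 18 of 25 type I interferon response genes and 10 of 22 MHC class I genes.

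The other members of the GBP family were higher in Gbp-high LECs, all 6 of the 6 tested, with a median log2 fold change of 2.01. Gbp5, which promotes inflammasome assembly, stood at 178 and 152 CPM in Gbp-high LECs, against 15.9 and 25.9 CPM in Gbp-zero LECs, a log2 fold change of 2.62 ± 0.37 (SE; adjusted p = 6.58e-10). Gbp2b stood at 242 and 270.1 CPM in Gbp-high LECs, against 15.9 and 56.4 CPM in Gbp-zero LECs (2.37 ± 0.29; adjusted p = 3.72e-13). Both Gbp-high sums lay above both Gbp-zero sums for each of these genes, as they did for 16.3% of all genes tested. Gbp3 and Gbp7 were more abundant in the Gbp-zero class and had smaller fold changes. Gbp3 stood at 395 and 319 CPM in Gbp-high LECs, against 159 and 96.0 CPM in Gbp-zero LECs (1.65 ± 0.24; adjusted p = 3e-09). Gbp7 stood at 638 and 690.5 CPM in Gbp-high LECs, against 350.1 and 192 CPM in Gbp-zero LECs (1.63 ± 0.21; adjusted p = 5.14e-12). Gbp8 (log2 fold change 2.55 ± 0.36) and Gbp9 (1.41 ± 0.24) were also higher, but their annotated spans overlap that of the rule gene Gbp4 on chromosome 5 and they may share its reads. Gbp6 reached 38.2 and 20.8 CPM in Gbp-high LECs, against 0 and 4.57 CPM in Gbp-zero LECs, and with Gbp10 was too low to test. GBP genes are similar in sequence, so reads may be split or lost between them. They form a cluster on chromosome 3, from Gbp5 at 142493978 to Gbp2 at 142638008, and another on chromosome 5 (GRCm38, GENCODE annotation).

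The IRGs rose with them, all 6 of the 6 tested, with a median of 1.77. Iigp1, an effector GTPase that loads onto pathogen vacuoles, was the most abundant, at 854 and 948 CPM in Gbp-high LECs, against 191 and 286 CPM in Gbp-zero LECs (1.81 ± 0.20; adjusted p = 2.32e-15). Igtp, also called Irgm3, a regulator of the effector GTPases, stood at 166 and 329 CPM in Gbp-high LECs, against 15.9 and 71.6 CPM in Gbp-zero LECs (2.25 ± 0.27; adjusted p = 3.13e-13). Ifi47 had 166 and 205 CPM in Gbp-high LECs, against 31.8 and 38.1 CPM in Gbp-zero LECs (2.42 ± 0.33; adjusted p = 1.67e-10). In each of these the Gbp-high sums exceeded the Gbp-zero sums in both libraries. The regulators Irgm2 (1.55 ± 0.23) and Irgm1 (1.48 ± 0.29) rose by less. Gm4951 (1.73 ± 0.34) was higher in library 2 alone, with 159 against 44.2 CPM, and stood at 25.5 CPM in Gbp-high and 31.8 CPM in Gbp-zero LECs of library 1.

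Of the interferon receptor and JAK-STAT list, 4 of 17 genes tested were higher and 1 was lower, with a median of 0.45. Irf7, which amplifies type I interferon responses, stood at 153 and 128 CPM in Gbp-high LECs, against 79.6 and 27.4 CPM in Gbp-zero LECs (1.98 ± 0.36; adjusted p = 5.37e-06). Stat2 (1.24 ± 0.31) and Usp18 (1.46 ± 0.42), a brake on type I receptor signalling, rose too, Usp18 in library 2 alone. Neither passed at matched depth, and Usp18 did not pass without the leukocyte-bearing cells. Irf1, an early interferon-induced transcription factor, missed the threshold at 293 and 329 CPM in Gbp-high LECs, against 159 and 206 CPM in Gbp-zero LECs (0.71 ± 0.22; adjusted p = 0.0666). The gene of the interferon gamma receptor chain Ifngr1 stood at 115 and 143 CPM in Gbp-high LECs and 127 and 97.5 CPM in Gbp-zero LECs and did not pass (0.45 ± 0.29; adjusted p = 0.841). Socs3, an inhibitor of cytokine signalling, was lower, with 51.0 and 126 CPM in Gbp-high LECs, against 63.7 and 264 CPM in Gbp-zero LECs (-1.02 ± 0.26; adjusted p = 0.00611), but did not pass at matched depth.

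Of 25 type I interferon response genes tested, 18 were higher and none lower in Gbp-high LECs, with a median of 1.08. Rsad2, which encodes the antiviral enzyme viperin, showed the largest fold change among the genes named by rule that rose in both libraries, with 369.8 and 137 CPM in Gbp-high LECs, against 47.7 and 22.8 CPM in Gbp-zero LECs (2.65 ± 0.36; adjusted p = 1.01e-10). Its neighbour Cmpk2, a mitochondrial nucleotide kinase, stood at 128 and 89.2 CPM in Gbp-high LECs, against 15.9 and 22.8 CPM in Gbp-zero LECs (2.05 ± 0.38; adjusted p = 1.78e-05). Ifi44 stood at 280.5 and 218 CPM in Gbp-high LECs, against 127 and 59.4 CPM in Gbp-zero LECs (1.73 ± 0.28; adjusted p = 2.2e-07). These 3 genes were higher in both libraries, whereas Ifit3, an RNA-binding antiviral gene (1.99 ± 0.51), was higher in library 2 and stood at 38.2 CPM in Gbp-high and 79.6 CPM in Gbp-zero LECs of library 1. Outside the lists, the noncoding RNA AW112010 (2.06 ± 0.39) and Trim34a (1.89 ± 0.55) were among the 12 largest increases with at least 50 CPM in both libraries and the same sign in both. Cmpk2, Ifit3 and Trim34a did not pass at matched depth, nor did Ifit3 and Trim34a without the leukocyte-bearing cells. At matched depth 8 of 26 list genes were higher, and without the leukocyte-bearing cells 12 of 25.

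**Figure D2:**
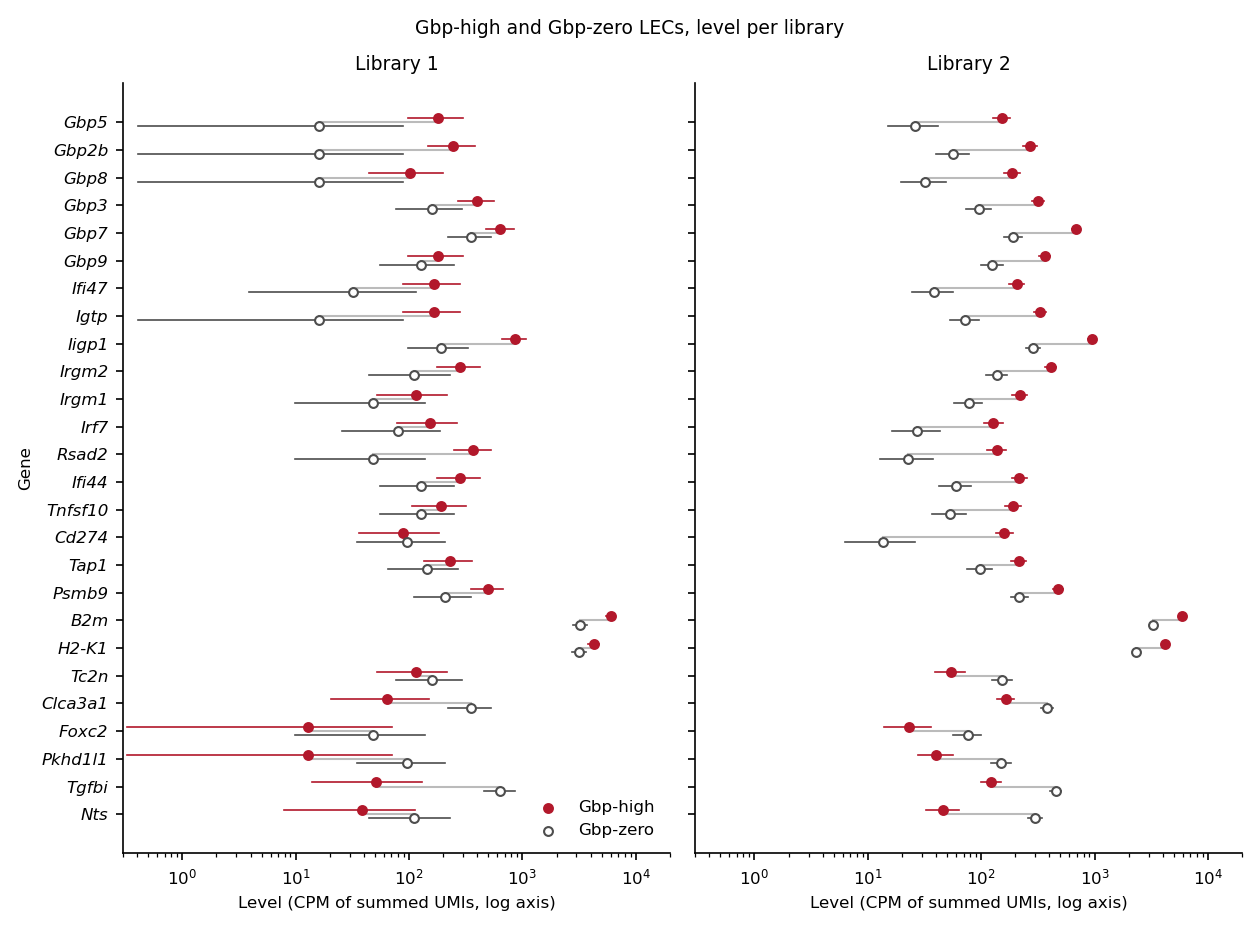
Level of 26 genes in Gbp-high (filled) and Gbp-zero LECs (open) in each library, in CPM of summed UMIs on a log axis, with 95% Poisson intervals. The GBPs, IRGs, Irf7 and Rsad2 lie higher in Gbp-high LECs and the 6 genes at the bottom lower, with the intervals of library 1 (16 and 23 cells) the wider, and with Cd274 about level there.

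The MHC class I pathway, which shows peptides from inside the cell to CD8 T cells, was higher at several of its steps. Of 22 genes tested, 10 were higher and none lower, with a median of 0.75. B2m, the shared light chain, stood at 6044 and 5873 CPM in Gbp-high LECs, against 3215 and 3257 CPM in Gbp-zero LECs (0.89 ± 0.18; adjusted p = 5.59e-05). Psmb9, an immunoproteasome subunit, stood at 497 and 474 CPM in Gbp-high LECs, against 207 and 218 CPM in Gbp-zero LECs (1.15 ± 0.21; adjusted p = 8.89e-06). The peptide transporter genes Tap2 (1.12 ± 0.23; adjusted p = 8.96e-05) and Tap1 (1.06 ± 0.26; adjusted p = 0.00468) rose by similar amounts, though neither passed at matched depth. The heavy chain gene H2-K1 rose by less, with 4246 and 4226 CPM in Gbp-high LECs, against 3135 and 2320.0 CPM in Gbp-zero LECs (0.70 ± 0.17; adjusted p = 0.00593). The heavy chain gene H2-D1 stood at 6566 and 6500.1 CPM in Gbp-high LECs and 5141 and 4425 CPM in Gbp-zero LECs and did not pass (0.48 ± 0.17; adjusted p = 0.2). At matched depth 3 of the 22 genes were higher, and without the leukocyte-bearing cells 7. H2 genes are similar in sequence, so their reads may be shared.

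MHC class II genes were low. H2-Ab1 was the 1 gene of 4 tested that rose, with 128 and 203 CPM in Gbp-high LECs, against 95.5 and 83.8 CPM in Gbp-zero LECs (1.17 ± 0.28; adjusted p = 0.0031). Cd74, the invariant chain, stood at 128 and 191 CPM in Gbp-high LECs and 255 and 123 CPM in Gbp-zero LECs (0.35 ± 0.25; adjusted p = 0.887). Its direction thus differed between the libraries, and without the 3 leukocyte-bearing cells it passed with a log2 fold change of 1.67. H2-Ab1 passed without those cells too, with 1.61, but not at matched depth, with 1.23.

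Of the T cell regulators and adhesion genes, 4 of 10 tested were higher, with a median of 0.43. Cd274, which encodes the T cell inhibitory ligand PD-L1, stood at 89.2 and 160.1 CPM in Gbp-high LECs, against 95.5 and 13.7 CPM in Gbp-zero LECs (2.77 ± 0.39; adjusted p = 4.13e-10). The rise came from library 2, with 131 against 9 UMIs, while library 1 held 7 in Gbp-high and 6 in Gbp-zero cells and its log2 difference was -0.10. Tnfsf10, the death ligand TRAIL, stood at 191 and 192 CPM in Gbp-high LECs, against 127 and 53.3 CPM in Gbp-zero LECs (1.61 ± 0.30; adjusted p = 1.03e-05). Il18bp, a decoy that binds interleukin 18, stood at 63.8 and 110.0 CPM in Gbp-high LECs, against 15.9 and 35.0 CPM in Gbp-zero LECs (1.66 ± 0.36; adjusted p = 0.000447). Lgals9, a galectin that binds T cell receptors such as TIM-3, rose by 0.72 ± 0.21 (adjusted p = 0.0392), and passed neither at matched depth nor without the leukocyte-bearing cells. Il33, an alarmin, stood at 395 and 446 CPM in Gbp-high LECs and 334 and 315 CPM in Gbp-zero LECs and did not pass, nor did Il7.

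The interferon-induced chemokine genes Cxcl9 and Cxcl10 were at or near 0 in LECs. Cxcl10 had 0 and 7 UMIs in Gbp-high LECs, 0 and 8.55 CPM, and none in Gbp-zero LECs. Cxcl9 had 0 and 1 UMI in each class. A count of 0 allows up to 38.2 CPM in the Gbp-high and 47.7 CPM in the Gbp-zero LECs of library 1 (3 counts per class). In Gbp-high BECs Cxcl10 stood at 243 and 219 CPM, against 22.4 and 14.8 CPM in Gbp-zero BECs. Ccl21a, the chemokine that draws dendritic cells into lymphatics, stood at 4807 and 5795 CPM in Gbp-high LECs and 6732 and 6061 CPM in Gbp-zero LECs and did not pass (-0.24 ± 0.17; adjusted p = 0.887). None of the 4 chemokine and atypical receptor genes tested passed.

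A smaller group of genes was lower in Gbp-high LECs. Nts, the peptide neurotensin, which lymphatic endothelium makes, stood at 38.2 and 46.4 CPM in Gbp-high LECs, against 111 and 300.1 CPM in Gbp-zero LECs (-2.60 ± 0.30; adjusted p = 2.79e-15). Tgfbi, a matrix protein induced by TGF-beta, stood at 51.0 and 122 CPM in Gbp-high LECs, against 637 and 454 CPM in Gbp-zero LECs (-2.11 ± 0.23; adjusted p = 2.12e-17). Foxc2, a transcription factor of lymphatic valves, stood at 12.8 and 23.2 CPM in Gbp-high LECs, against 47.7 and 76.2 CPM in Gbp-zero LECs (-1.72 ± 0.45; adjusted p = 0.00957). All 3 were lower in both libraries, and the Foxc2 call ended at matched depth (-1.52). In library 1, Nts had 3 UMIs in Gbp-high LECs, all in 1 cell, and 7 in Gbp-zero LECs. By bands of 0, 1 to 2, 3 to 5 and 6 or more Gbp UMIs, Nts stood at 111, 224, 0 and 132 CPM in library 1. The same bands held 300, 63.8, 55.2 and 30.8 CPM in library 2, so Nts fell from band to band in library 2 alone. Nts UMIs were uneven between cells: of the 197 in Gbp-zero LECs of library 2, 25.4% came from 1 cell and the rest from 45 others. Tgfbi was spread more evenly, over 84 of the Gbp-zero cells there with at most 6.38% from any one. Foxc2 counts were few, 1 and 19 UMIs in Gbp-high and 3 and 50 in Gbp-zero LECs.

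Other genes that fell were Clca3a1, a secreted chloride channel regulator, with 63.8 and 165 CPM in Gbp-high LECs, against 350.1 and 384 CPM in Gbp-zero LECs (-1.35 ± 0.23; adjusted p = 5.04e-07). Pkhd1l1 stood at 12.8 and 40.3 CPM in Gbp-high LECs, against 95.5 and 151 CPM in Gbp-zero LECs (-1.95 ± 0.34; adjusted p = 1.68e-06). Ednrb, an endothelin receptor, had no UMI in the Gbp-high LECs of library 1, which allows up to 38.2 CPM, and 22 CPM in library 2, against 79.6 and 94.4 CPM in Gbp-zero LECs (-2.22 ± 0.40; adjusted p = 7.1e-06). The basement membrane gene Hmcn1 (-1.20 ± 0.30), Tc2n (-1.32 ± 0.31), the amino acid transporter Slc38a4 (-1.33 ± 0.34), Btnl9 (-1.18 ± 0.32), the antisense RNA Gm14964 (-1.48 ± 0.33) and the matrix gene Comp (-1.38 ± 0.37) fell by less. At matched depth Hmcn1, Slc38a4, Btnl9 and Comp kept their sign and did not pass. Single cells weighed on some falls. All 9 Comp UMIs and all 18 Apoe UMIs of the Gbp-zero LECs of library 1 lay in 1 cell each, and Apoe (-1.96 ± 0.36), a lipid carrier that macrophages also make, was too low to test without the leukocyte-bearing cells. The immunoglobulin genes Igha and Igkc were called lower too, but 99.2 and 99.0% of their UMIs in the Gbp-zero LECs of library 2 lay in 1 cell, and neither was called without it.

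Few or no genes passed in the lists on other sides of lymphatic biology. Of 17 lymphatic identity genes tested, Nts was lower and none was higher, with a median of -0.10. None of 13 lymphatic capillary and immune-contact genes passed (median -0.09), nor did any of 10 NF-kappaB targets (0.08), 10 cell death and inflammasome genes (0.52) or 21 immediate early and heat shock genes (-0.24). Of 14 collecting vessel and valve genes, Foxc2 was lower and Emilin1, an elastic fibre gene of lymphatic anchoring, higher (0.94 ± 0.27; adjusted p = 0.0325), with a median of -0.29. Neither passed at matched depth, nor did Emilin1 without the leukocyte-bearing cells. Of 9 niche signal genes 1 was lower, Nts again. The intestinal stem cell factors Rspo3, at 306 and 287 CPM in Gbp-high LECs and 255 and 195 CPM in Gbp-zero LECs, and Wnt2, at 140.2 and 179.6 CPM in Gbp-high LECs and 95.5 and 146 CPM in Gbp-zero LECs, did not pass. Of 13 lipid handling genes, Fabp4, a fatty acid binding protein, was higher, with 459 and 783 CPM in Gbp-high LECs, against 191 and 484 CPM in Gbp-zero LECs (0.78 ± 0.20; adjusted p = 0.00804), and Apoe lower. Fabp4 did not pass at matched depth, and 1 cell held 119 of its 641 UMIs in the Gbp-high LECs of library 2. The blood endothelial markers other than the 4 rule genes summed to 5330 and 4755 CPM in Gbp-high LECs, against 4727 and 3475 CPM in Gbp-zero LECs, and of the 6 that could be tested the water channel Aqp1 was higher (0.93 ± 0.18). A p that missed the threshold does not show that these genes were equal.

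Levels also differed between bands of Gbp2 and Gbp4 UMIs on either side of the threshold. List sums leave out the rule genes. The summed IRG list stood at 477, 765, 1025 and 3069 CPM in library 1 LECs with 0, 1 to 2, 3 to 5 and 6 or more Gbp UMIs, and at 687, 1247, 2041 and 2871 CPM in library 2. The type I interferon list stood at 5905, 7671, 9547 and 11399 CPM in library 1 and at 6704, 8603, 10359 and 12917 CPM in library 2. MHC class I stood at 15056, 17797, 22006 and 23280 CPM in library 1 and at 13498, 18442, 21805 and 22960 CPM in library 2. These sums were higher in each band than in the one before it in both libraries, with 23, 27, 11 and 5 cells in library 1 and 214, 271, 164 and 75 in library 2. After each cell was thinned to 1500 UMIs this order held for the 3 lists in library 2 and for the type I interferon list in library 1. There, the thinned IRG sum was 493, 963, 909 and 2267 CPM and that of MHC class I 16116, 19185, 23515 and 23333 CPM, so each had 1 step down. Tgfbi went the other way, with 637, 131, 18 and 132 CPM in library 1 and 454, 262, 122 and 123 CPM in library 2. Cells with 1 or 2 Gbp UMIs thus already held less Tgfbi than Gbp-zero cells in both libraries. Cd274 stood at 95.5, 18.7, 71.9 and 132 CPM in library 1 and at 13.7, 65.1, 127 and 219 CPM in library 2. It was thus higher from band to band in library 2 alone, on 2 to 6 UMIs a band in library 1. Lymphatic identity genes summed to between 25307 and 25889 CPM in all bands of library 2, while in library 1 they stood at 27868, 28781, 23174 and 20562 CPM.

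**Figure D3:**
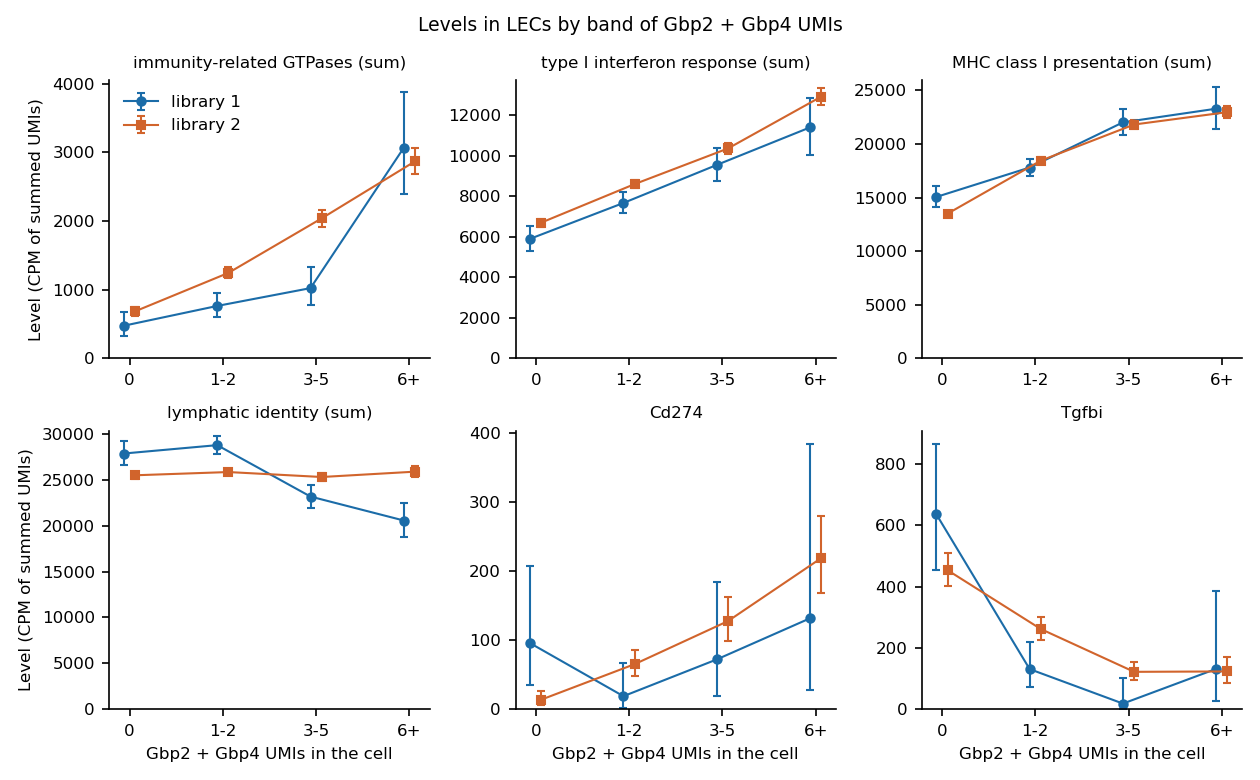
Level of 4 summed gene lists and of Cd274 and Tgfbi in LECs grouped by their Gbp2 and Gbp4 UMIs, in CPM with 95% Poisson intervals, for each library. The interferon-related sums, not thinned for depth, are higher in each band than in the one before in both libraries, Cd274 is so in library 2 alone, Tgfbi is highest at 0 Gbp UMIs, and the lymphatic identity sum is level in library 2.

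The difference was also seen in the median cell. After each LEC was thinned to 1500 UMIs, the median cell held 35.5 and 33 MHC class I UMIs in the Gbp-high class, against 23 and 21 in the Gbp-zero class. The interquartile range in library 2 was 26 to 41 in Gbp-high LECs and 13 to 29 in Gbp-zero LECs, so the classes overlapped. Type I interferon response genes had medians of 15 and 15 UMIs in Gbp-high LECs, against 7 and 10 in Gbp-zero LECs. Thinned cells without any IRG UMI were 3 of 16 and 34 of 239 among Gbp-high LECs, against 15 of 23 and 103 of 214 among Gbp-zero LECs.

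Most genes that were higher in Gbp-high LECs were also higher in Gbp-high BECs (996 cells, 157 and 839) than in Gbp-zero BECs (2344 cells, 307 and 2037). In BECs 979 of 9439 genes passed (10.4%), 563 of them higher (5.96%) and 416 lower (4.41%). Of the 82 genes higher in LECs, 58 were among the 563, which is 70.7% of the first list and 10.3% of the second. Of the 32 lower genes, 2 were lower in BECs. The BEC classes also differed in a venous gene, and their vessel types were not counted. Selp, a venous adhesion gene, stood at 2429 and 1577 CPM in Gbp-high BECs, against 200.1 and 128 CPM in Gbp-zero BECs, whereas it stood at 25.5 and 40.3 CPM in Gbp-high LECs and 0 and 74.6 CPM in Gbp-zero LECs. The part that any difference in vessel type has in the BEC fold changes was not tested.

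The difference between the fold change in LECs and that in BECs was tested directly in 1 model, and 220 of 9439 genes passed (2.33%), 72 with the higher fold change in LECs (0.763%) and 148 with the lower (1.57%). Among the 82 genes higher in LECs, 26 rose more in LECs than in BECs and 1, H2-Ab1, rose less. The H2-Ab1 difference was -1.72, and -0.69 and not passing without cells that held 10 or more leukocyte UMIs, among them 4 Gbp-high BECs of library 2, 1 of which held 8952. Among the 32 lower genes, 20 had a lower fold change in LECs than in BECs. Those 20 include Igha and Igkc, whose Gbp-zero UMIs in LECs of library 2 lay almost wholly in 1 cell. Another is Apoe, whose difference did not pass without cells that held 10 or more leukocyte UMIs. The 82 and 32 genes were chosen on their change in LECs, which favours a larger change there. The same threshold of 3 UMIs also met deeper BECs, with medians of 4657 and 5412 UMIs in Gbp-high BECs against 4567.5 and 3072 in Gbp-high LECs. Gbp2 and Gbp4 were a median 0.0834 and 0.153% of the UMIs of Gbp-high LECs, against 0.0873 and 0.0857% in Gbp-high BECs. In library 2 the contrast in LECs was thus the stronger one, and its part in the differences was not tested. Rsad2 showed the largest positive difference among the genes named by rule, 2.36 ± 0.35 on the log2 scale (adjusted p = 7.1e-09). In BECs it stood at 97.4 and 83.3 CPM in the Gbp-high class and 102 and 60.3 CPM in the Gbp-zero class. Irf7 differed by 1.55 ± 0.35 (adjusted p = 0.00107), with 82.8 and 87.5 CPM in Gbp-high BECs and 76.3 and 57.7 CPM in Gbp-zero BECs. B2m differed by 0.71 ± 0.14 (adjusted p = 7.17e-05), with 3302 and 3235 CPM in Gbp-high BECs and 2928 and 2799.8 CPM in Gbp-zero BECs. For all 3 the BEC classes lay close together while the LEC classes lay apart. Gbp5 and Igtp did not differ past the threshold between the cell types, with differences of 0.35 ± 0.39 and 0.82 ± 0.26 (adjusted p = 0.877 and 0.0575).

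Tgfbi moved in opposite directions, with 68.2 and 77.4 CPM in Gbp-high BECs, against 15.3 and 13.2 CPM in Gbp-zero BECs, and a difference between LECs and BECs of -4.51 ± 0.25 (adjusted p = 8.88e-71). Tc2n did so too, with 30.4 and 13.8 CPM in Gbp-high BECs, against 3.59 and 2.53 CPM in Gbp-zero BECs, and a difference of -3.89 ± 0.45 (adjusted p = 2.94e-15). Both genes were lower in Gbp-high LECs and higher in Gbp-high BECs than in their Gbp-zero counterparts. Foxc2 differed by -2.86 ± 0.67 (adjusted p = 0.0016), at 7.96 CPM or less in every BEC class.

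**Figure D4:**
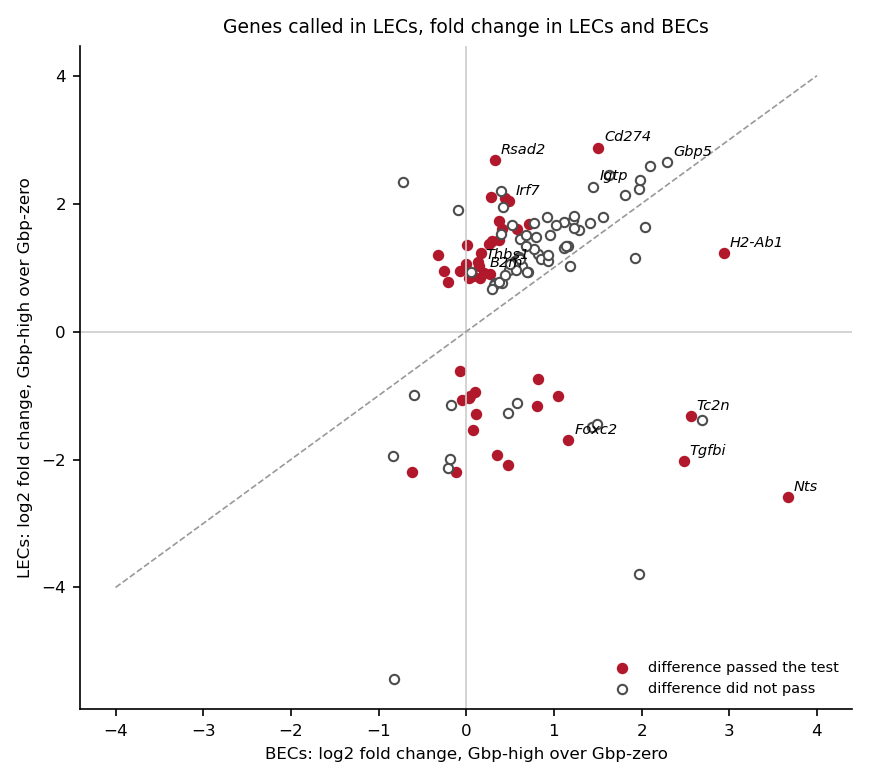
Log2 fold change of Gbp-high over Gbp-zero cells in LECs (vertical) and BECs (horizontal) for 112 of the genes called in LECs, filled where the difference between the cell types passed the test (45 genes). Igha and Igkc are left out because 1 cell holds nearly all of their Gbp-zero UMIs. Most higher genes lie right of 0 and many above the dashed line of equal change, while Tgfbi, Nts and Tc2n lie at the lower right. Nts had no UMI in most BEC sums, so its horizontal place depends on the prior count.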

How the data were processed

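The authors deposited raw counts: whole numbers of UMIs for each of 31053 gene entries in every barcode, as 1 matrix a library. Per the submitters' processing notes, the tools were Cell Ranger 3.1.0 and bcl2fastq 2.2 and the build mm10. For the annotation, the sources used here give none. Entries with the same symbol were summed, and gene positions come from GENCODE vM21. Cells with at least 500 genes, at least 1500 UMIs and at most 15% mitochondrial UMIs were kept. UMIs were summed per library and class and tested in R 4.3.3 with edgeR 4.0.16: robust quasi-likelihood, TMM scaling, a minimum count of 10 in the expression filter, library as a block, Benjamini-Hochberg adjustment at 0.05. LECs and BECs were fitted together for the difference, with a block for each library and cell type. Standard errors are |log2 fold change| over √F. Levels are CPM, and genes of 1 library were compared on log2(CPM + 1). Genes with 0 UMIs in a class have fitted fold changes that depend on the prior count. Scrublet was run in scanpy 1.11.5, per library. DESeq2 1.42.0 was an alternative.

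The named genes were the 12 largest increases and 12 largest decreases past the threshold that agreed in sign between libraries and reached 50 CPM in 1 class of each, up to 4 passing members of each list, all GBPs and 16 further genes. The members, lists and genes were chosen with earlier results of these data known, and no list count is independent evidence. Library numbers pair the classes because its 2 classes share that sample. The fits were tested on simulated counts. A gene that the rule names is not reported here.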

Additional observations from a re-analysis of the deposited data

Results flagged for a closer look

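The fold change between Gbp-high and Gbp-zero cells differed between LECs and BECs, by the test of the difference itself, for 20 of the genes named by rule. Of all 9439 genes tested, 220 did so (2.33%). Many named genes were chosen because they passed in LECs, which favours such a difference. The same UMI threshold also met LECs and BECs of unlike depth, as given above. All values are log2 fold changes in LECs minus those in BECs. The interferon-response genes Rsad2 (2.36), AW112010 (1.81), Cmpk2 (1.64), Irf7 (1.55), Stat2 (1.06) and Irf1 (0.69), the MHC gene B2m (0.71), the T cell ligands Cd274 (1.37) and Tnfsf10 (0.98) and the fatty acid binding protein gene Fabp4 (0.98) had the higher fold change in LECs. Nts (-6.25), Tgfbi (-4.51), Tc2n (-3.89), Foxc2 (-2.86), Apoe (-2.29), Hmcn1 (-1.98), H2-Ab1 (-1.72), Ednrb (-1.57), Il33 (-1.47) and Clca3a1 (-1.40) had the lower. Nts had no UMI in 3 of the 4 BEC sums, so its fitted value there depends on the prior count. Irf1 and Il33 did not pass in LECs alone, and the Cd274 rise in LECs came from library 2. Without cells that held 10 or more leukocyte UMIs, the H2-Ab1 difference was -0.69 and that of Apoe -1.31, and neither passed.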

How the results depend on the processing

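With 82 genes higher and 32 lower in Gbp-high LECs as the reported counts, DESeq2 called 10 and 1 (11 genes shared with edgeR), the fit with no replicate block 20 and 6, matched depth 43 and 16, cells thinned to 1500 UMIs 39 and 11, a threshold of 5 UMIs 54 and 19, a threshold of 2 UMIs 10 and 5, classes on Gbp2 alone 20 and 11, classes on Gbp4 alone 34 and 11, and LECs without any leukocyte UMI 54 and 9. The other alternatives and the one added after seeing the data (no cell with 10 or more leukocyte UMIs, 57 and 22) stayed within 1.5 times. DESeq2 gave no adjusted p for 4608 genes, which could thus not be called. The library block is the pairing of the classes. For the difference between LECs and BECs, 72 genes were higher and 148 lower. Thinning gave 13 and 57, no replicate block 3 and 34, and a threshold of 5 UMIs 18 higher. In BECs, with 563 and 416, thinning gave 295 and 111 and no replicate block 250 and 25. The share of LECs that were Gbp-high was 9.09 and 14.9% at 5 UMIs, 42.4 and 49.6% at 2 UMIs, and 10.6 and 15.7% after thinning. With 1 library left out the log2 fold change ran from -0.31 to 1.82 for Gm4951, -0.31 to 1.66 for Usp18, -1.04 to 2.80 for Ifit3 and -0.10 to 3.45 for Cd274, the negative values from library 1. With classes on Gbp4 alone those of Fabp4 (-0.11) and Cd74 (-1.02) turned round. Several alternatives leave smaller numbers of cells or UMIs. DESeq2 and the fit with no replicate block used the same sums, and the threshold of 2 UMIs took in more Gbp-high LECs (28 and 359). The cause of these changes was not tested. With 1 library no residual degree of freedom is left, so no counts were made without a library. Library 1, with 16 Gbp-high LECs, limits what any gene below about 50 CPM can show there.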

Other observations

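Genes outside the lists were also higher in Gbp-high LECs, picked here after their values were seen. Thbs1, a matrix protein that restrains vessel growth, stood at 1237 and 561 CPM in Gbp-high LECs, against 429.7 and 309 CPM in Gbp-zero LECs (log2 fold change 1.05 ± 0.19; adjusted p = 9.91e-06, edgeR). Mfge8, a bridge for the uptake of dying cells, stood at 638 and 544 CPM in Gbp-high LECs, against 286 and 269.6 CPM in Gbp-zero LECs (1.04 ± 0.20; adjusted p = 3.86e-05). Wars, the interferon-inducible tryptophan tRNA ligase, stood at 166 and 214 CPM in Gbp-high LECs, against 95.5 and 67.0 CPM in Gbp-zero LECs (1.55 ± 0.29; adjusted p = 1.2e-05). Nampt, the enzyme that salvages nicotinamide, stood at 268 and 229.7 CPM in Gbp-high LECs, against 143 and 82.3 CPM in Gbp-zero LECs (1.38 ± 0.26; adjusted p = 2.98e-05). All 4 were higher in both libraries, and each had a higher fold change in LECs than in BECs, by 0.88, 1.06, 1.03 and 1.06 on the log2 scale in that order, past the test of the difference. At matched depth Thbs1 did not pass (0.93), and 1 cell held 36 of its 97 UMIs in the Gbp-high LECs of library 1.

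The cell cycle gene Ccnd2 (1.08 ± 0.22), the endothelial adhesion gene Mmrn2 (0.85 ± 0.20) and the extracellular peroxidase gene Gpx3 (1.29 ± 0.20) rose in Gbp-high LECs as well, Mmrn2 not at matched depth. Gpx3 differed most between the libraries, with 1288 and 393.5 CPM in Gbp-high LECs, against 875 and 114 CPM in Gbp-zero LECs. Apod was called lower (-5.31 ± 0.65), with 78.6% of its 70 UMIs in the Gbp-zero LECs of library 2 in 1 cell.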
